A study of Homo sapiens with 6 samples.

Results

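H358 is an established human cell line from a bronchioalveolar carcinoma of the lung. Its response to the cytokine IL-1b after 60 min was read by comparing IL-1b arrays with vehicle arrays within each of 2 lines. Members were chosen by sample title: 4 of the series' 6 arrays, namely an H358 line carrying GFP (genotype labelled control) given vehicle or IL-1b, and a second H358 line, labelled YAP(5SA), given vehicle or IL-1b. YAP is the transcriptional coactivator that Hippo kinases restrain, and in YAP(5SA) serines that they phosphorylate are mutated. The other 2 arrays hold the same lines after 60 min of TNFa, and they entered the fit of all 6 arrays for its estimate of the spread. Cells of all 6 samples were grown in DMEM with fetal bovine serum, and the series title names YAP target genes under cytokine induction as the question. The dose is written as 10 g/ml in the labels, which cannot be the unit used, and the true dose is not known. The labels state neither how the YAP(5SA) line was made nor whether it is 1 clone.

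IL-1b is a secreted alarm cytokine that binds the receptor IL1R1, which then pairs with the accessory chain IL1RAP. The adaptor MYD88, IRAK kinases and the ubiquitin ligase TRAF6 carry the signal to the IKK complex and to MAP kinases. IKK frees NF-kB from its IkB inhibitors, and MAP kinases switch on the AP-1 and EGR transcription factors. In airway epithelium this pathway is known for the rapid transcription of chemokines that attract neutrophils and of feedback inhibitors that limit the signal.

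Levels are log2 of the deposited intensity, with values below 0 set to 0 and 16 added, so that an intensity of 0 reads 4, the floor of the scale. A difference is IL-1b minus vehicle on that scale, and for dim genes it is smaller than the true change. A probe was called when its adjusted p in limma fell under 0.05 in an additive model of treatment and line over the 6 arrays, and each of 19090 genes was read through its annotated probe with the highest mean. Median intensity ran from 335.2 to 398.1 over the 6 arrays. Each condition had 1 array, and nothing in the labels says that arrays came from separate cultures. The spread behind the p-values is how far treatment differences, those of TNFa included, varied between the lines, not a spread between replicates. For each probe it was drawn mostly from probes of similar level, with 15.2 prior degrees of freedom against 2 residual ones. Fits that left out 1 array at a time are given with the range of their differences. Without an IL-1b or vehicle array, the line term draws on the TNFa arrays, which then enter the difference as well. Such a range can therefore reach beyond both pair differences. Without a TNFa array, the difference stays as it was.

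The genes called higher with IL-1b included 7 of 28 measured chemokines, 6 of 21 cytokines and 6 of 11 NF-kB subunits and IkB proteins. They also included 9 of 24 early genes of the EGR, NR4A, IER, AP-1 and MAF lists. In limma's fit 78 genes were called higher, which is 0.409% of the genes tested, and 19 were called lower, which is 0.0995%. All 97 called genes moved the same way in both pairs of arrays, that of the GFP line and that of the YAP(5SA) line. The calls rest on the mean of these same pairs, so such agreement is largely built in. Of all 19090 genes, 6699 were higher in both pairs and 6334 lower in both, and the median difference was 0.001. Of these 97 calls, 80.4% were higher, whereas after centring of the arrays on their medians 135 calls were higher and 140 lower. By size alone, 76 genes (0.398%) were raised at least 2-fold in both lines and 30 (0.157%) were lowered at least 2-fold in both. The called and the raised sets shared 66 genes, out of 78 and of 76. Both IL-1b arrays read above both vehicle arrays for 19.8% of all genes and below both for 19.6%. For the called genes, which were chosen by this same difference, that was so for 74 of the 78 higher ones, and the exceptions, PTGS2, CCL2, ARL14 and OLR1, had vehicle levels that differed widely between the lines.

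**Figure D1:**
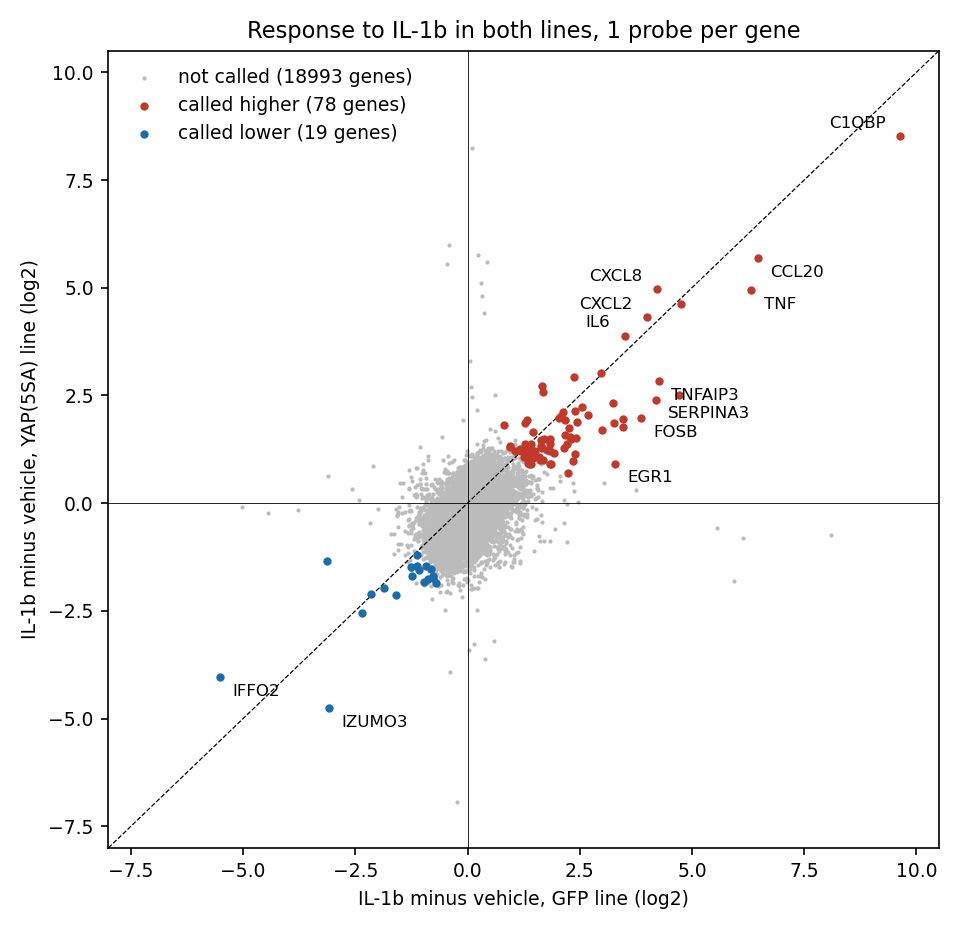
IL-1b minus vehicle on the log2 scale in the GFP line (horizontal) and in the YAP(5SA) line (vertical), 1 point for each of 19090 genes, with the 78 genes called higher in red, the 19 called lower in blue and equal differences on the dashed line. Most red points lie to the right of the dashed line, and C1QBP stands apart at 9.64 and 8.52.

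Chemokines, secreted proteins that draw leukocytes along a gradient, included several of the largest differences. Of 14 measured CXC chemokines, CXCL1, CXCL2, CXCL3 and CXCL8 were called higher and none lower, and the median difference of the list was 0.19. Of 14 measured CC and CX3C chemokines, CCL20, CCL2 and CCL4 were called higher and none lower, with a median of 0.25. Most members of both lists were not called.

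CCL20, which attracts CCR6-bearing dendritic cells and lymphocytes to mucosa, read 10.81 with vehicle and 17.27 with IL-1b in the GFP line, and 10.82 and 16.50 in the YAP(5SA) line. From here on, levels are given with the GFP line before the YAP(5SA) line. The vehicle levels were nearly equal and both IL-1b arrays stood far above them. The mean difference was 6.07 ± 0.26 (SE from limma), a 67.3-fold change with an adjusted p of 2.36e-10.

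CXCL8, the neutrophil attractant also called IL-8, read 12.12 and 9.87 with vehicle and 16.35 and 14.82 with IL-1b. Its vehicle level was lower in the YAP(5SA) line, and each line still moved clear of both vehicle arrays, by 4.23 and 4.96. CXCL3 read 9.79 and 8.65 with vehicle and 14.55 and 13.27 with IL-1b, a mean difference of 4.69 ± 0.25 (SE). CXCL2, already bright in vehicle at 13.54 and 13.35, reached 17.54 and 17.67, so here the YAP(5SA) line ended slightly above the GFP line. CXCL1 read 16.25 and 15.11 with vehicle and 18.63 and 18.03 with IL-1b, a difference of 2.65. These neutrophil attractants signal through the receptors CXCR1 and CXCR2, and adjusted p in limma ran from 4.24e-09 for CXCL8 and CXCL3 to 1.3e-06 for CXCL1. CXCL1, CXCL2 and CXCL3 are close paralogs, and whether their probes also take up each other's RNA was not tested. A second CXCL1 probe gave a larger difference, 3.76.

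CCL2, the monocyte attractant MCP-1, read 15.86 and 13.91 with vehicle and 17.50 and 15.24 with IL-1b. The IL-1b level of the YAP(5SA) line lay below the vehicle level of the GFP line, so the groups overlapped although each line moved up, by 1.64 and 1.33. A second CCL2 probe differed by 1.54. CCL4, which attracts monocytes and T cells, read 7.96 and 8.79 with vehicle and 9.28 and 10.73 with IL-1b. The calls of CCL20 and of the 4 CXC chemokines held whichever 1 of the 6 arrays was left out. Those of CCL2 and CCL4 did not: CCL2 lost its call without either GFP array of the pair or the YAP(5SA) vehicle array, with differences from 1.29 to 1.68, and CCL4 without the GFP vehicle array or either YAP(5SA) array of the pair, with differences from 1.36 to 1.91.

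Among chemokines not called, CXCL5 read 16.41 and 15.51 with vehicle and 16.77 and 16.14 with IL-1b. CXCL10, an interferon-inducible attractant of T cells, differed by 1.63 in the GFP pair and by -0.28 in the YAP(5SA) pair. CCL5 was bright on every array, at 14.46 and 17.87 with vehicle and 15.10 and 18.16 with IL-1b. None of these differences passed the test, with an adjusted p in limma of 0.342, 0.431 and 0.401.

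Promoter sequences are shown for the chemokines with the largest differences, because these genes moved together and 3 of the 4 windows hold a match to the NF-kB motif. Each runs 5′ to 3′ on the gene's strand from 250 bases before the RefSeq start to 50 after it (GRCh38.p14), with the motif matches in capitals. The CCL20 window is chr2:227813592-227813891 on the + strand, CXCL3 is chr4:74038640-74038939 on the - strand, CXCL2 is chr4:74099146-74099445 on the - strand, and CXCL8 is chr4:73740319-73740618 on the + strand. The capitals mark an NF-kB match in CCL20, a pair of overlapping NF-kB matches in CXCL3 and in CXCL2, and an AP-1 match, TGANTCA, in CXCL8.
CCL20: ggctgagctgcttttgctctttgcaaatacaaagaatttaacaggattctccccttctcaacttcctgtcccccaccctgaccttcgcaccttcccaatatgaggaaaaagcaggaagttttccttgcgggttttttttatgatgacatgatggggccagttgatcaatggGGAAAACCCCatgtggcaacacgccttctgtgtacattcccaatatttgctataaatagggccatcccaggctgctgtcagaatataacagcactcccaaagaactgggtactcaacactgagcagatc
CXCL3: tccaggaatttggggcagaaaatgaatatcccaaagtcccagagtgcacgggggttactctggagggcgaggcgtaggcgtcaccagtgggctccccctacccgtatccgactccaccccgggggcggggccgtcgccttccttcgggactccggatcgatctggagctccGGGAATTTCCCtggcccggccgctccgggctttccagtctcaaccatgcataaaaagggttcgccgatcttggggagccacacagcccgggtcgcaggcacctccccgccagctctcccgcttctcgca
CXCL2: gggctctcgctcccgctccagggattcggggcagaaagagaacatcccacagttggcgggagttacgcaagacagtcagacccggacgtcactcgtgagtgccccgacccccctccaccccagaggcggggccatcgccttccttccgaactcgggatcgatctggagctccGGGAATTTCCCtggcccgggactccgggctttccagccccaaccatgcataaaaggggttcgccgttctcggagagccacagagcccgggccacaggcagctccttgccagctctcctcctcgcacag
CXCL8: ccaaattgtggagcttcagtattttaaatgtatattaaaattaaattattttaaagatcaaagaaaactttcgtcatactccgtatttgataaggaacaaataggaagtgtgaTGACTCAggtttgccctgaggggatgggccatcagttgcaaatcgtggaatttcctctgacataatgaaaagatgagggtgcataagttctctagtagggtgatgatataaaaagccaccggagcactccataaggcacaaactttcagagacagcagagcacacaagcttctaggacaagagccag

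The NF-kB match begins 79 bases before the start in CCL20, and the later match of the pair begins 78 bases before it in CXCL3 and 77 in CXCL2, so the 3 genes carry it at almost the same place. In CXCL8 the AP-1 match begins 137 bases before the start. CXCL1 also held a pair of NF-kB matches, whereas the windows of C1QBP and TNF held neither motif. Both strands were searched for the NF-kB motif as GGGRNNYYCC, for TGANTCA and for the CArG motif of serum response factor as CCWWWWWWGG. Here R is A or G, Y is C or T, W is A or T, and N is any base. Only exact matches counted, so a window without a match may hold a site close to the pattern. In CXCL8, tggaatttcc departs from the NF-kB pattern only in its first base and was not marked. Of the 78 genes called higher, 64 matched a promoter in the RefSeq table, and the NF-kB motif was in 21 of these windows, or 32.8%, against 12.3% of the windows of all measured genes and 10.8% of all promoters in the table. The AP-1 motif was in 7.81% of them against 5.82% of those of measured genes. The CArG motif was in 1 window, that of EGR1, which is 1.56% against 1.22%. Among the 19 genes called lower, 15 windows were found and 1 held the NF-kB motif. A match describes the letters in the window and does not show that a factor binds there.

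**Figure D2:**
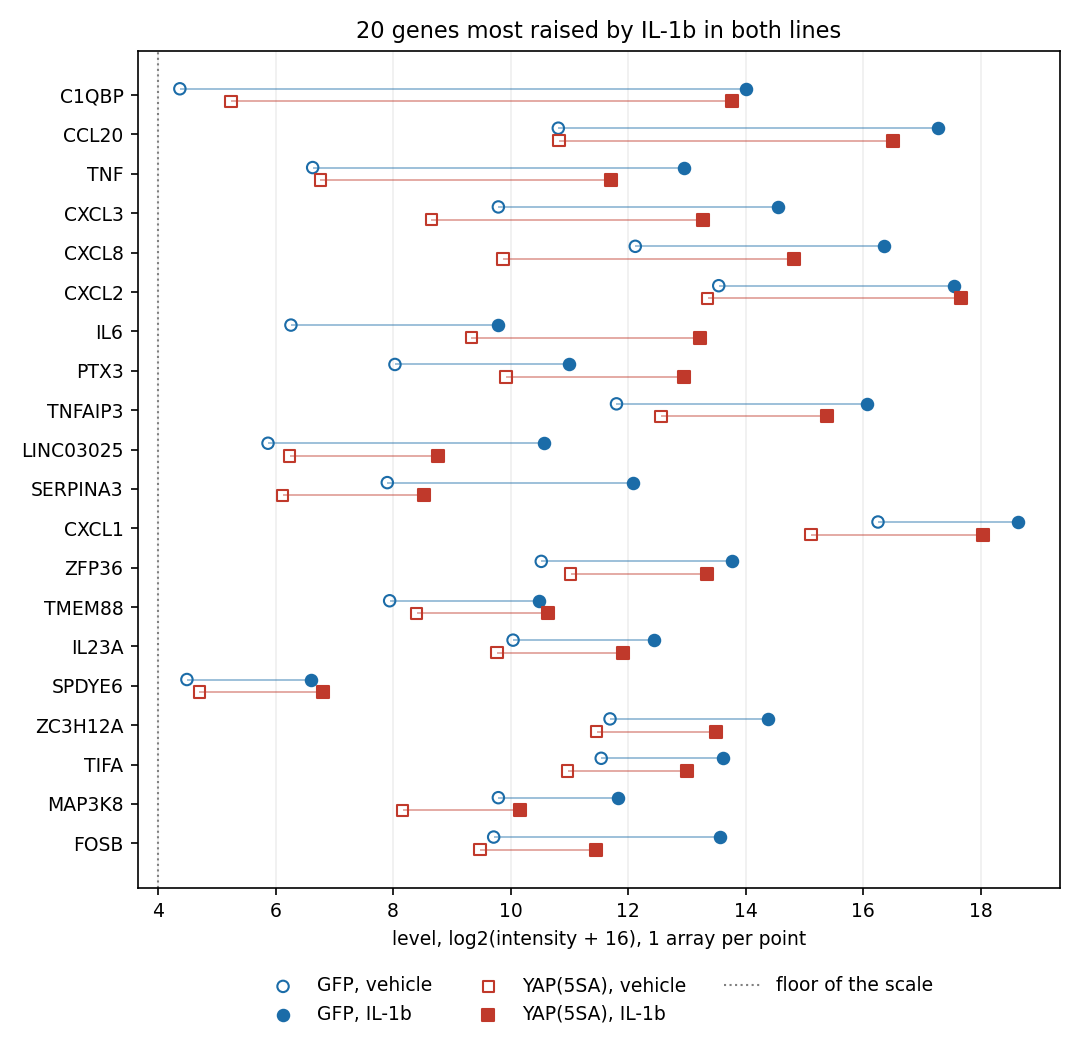
Level on each array, as log2(intensity + 16), for the 20 genes, among those called higher without overlap between IL-1b and vehicle arrays, that were raised most in the line where they moved less: GFP line in blue circles, YAP(5SA) line in red squares, open for vehicle and filled for IL-1b, with the floor of the scale at 4 as a dotted line. Every filled point lies to the right of both open points of its gene, from C1QBP at 14.01 and 13.76 down to FOSB at 13.57 and 11.45.

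Cytokine genes followed. Of 21 measured members of the cytokine list, 6 were called higher (TNF, IL6, IL23A, LTB, LTA and IL32) and none lower, and the list's median was 0.48. TNF, the cytokine that itself activates NF-kB, read 6.63 and 6.76 with vehicle and 12.95 and 11.70 with IL-1b. It went from near the low end of the scale to a mid-range level in both lines, a difference of 5.63 ± 0.30 (SE) with an adjusted p of 4.24e-09 in limma.

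IL6, the cytokine that drives the acute phase response, started lower in the GFP line, at 6.26, than in the YAP(5SA) line, at 9.33. With IL-1b it reached 9.78 and 13.22, so the lines kept their order and moved by similar amounts, 3.51 and 3.89. IL23A, the specific subunit of IL-23, read 10.04 and 9.77 with vehicle and 12.43 and 11.91 with IL-1b. LTB and LTA encode the lymphotoxins, TNF relatives that organise lymphoid tissue. LTB differed by 1.46 and 1.65 in the GFP and YAP(5SA) pairs, and LTA by 1.46 and 1.22.

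IL32 differed by 1.45 and 1.04, but its other probes did not pass, and 1 of them differed by -0.72 in the YAP(5SA) pair. The calls of TNF and IL6 held in all 6 fits that left out 1 array. IL23A and LTB lost theirs without either vehicle array (differences from 1.98 to 2.55 and from 1.44 to 1.67), LTA also without the GFP IL-1b array (1.24 to 1.44), and IL32 without any 1 of the 4 IL-1b and vehicle arrays (1.07 to 1.41). IL1A, which encodes the sister cytokine IL-1 alpha, read 7.39 and 7.19 with vehicle and 9.78 and 7.48 with IL-1b. The GFP line alone stood apart there, and the adjusted p in limma was 0.121. IL1B itself differed by 0.78 and 0.32 and was not called.

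The receptor and its adaptors moved little. Of 21 measured genes of IL-1 receptor signalling, 1 was called higher, none was called lower, and the median difference was 0.16. IL1R1 read 10.79 and 9.73 with vehicle and 10.65 and 9.18 with IL-1b. IL1RAP read 9.53 and 9.35 with vehicle and 9.81 and 9.56 with IL-1b, and IL1RN, the receptor antagonist, differed by 0.18 and -0.11. MYD88 and TRAF6 had mean differences of -0.14 and 0.23.

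The 1 called member was MAP3K8, the kinase TPL2 that links IKK to ERK, which read 9.79 and 8.16 with vehicle and 11.82 and 10.15 with IL-1b. Both lines moved by nearly the same amount, 2.03 and 1.98, and the call was lost without either vehicle array, with differences from 1.90 to 2.12. IRAK2, the kinase that sustains signalling, was counted on another list, that of A20, ABIN and TRAF genes. It also moved alike in both pairs, by 0.98 and 1.03, with an adjusted p of 0.0745 in limma. TIFA, an adaptor that activates TRAF6, was not on a list and was called higher: it read 11.54 and 10.97 with vehicle and 13.62 and 13.00 with IL-1b. Its call was lost without the YAP(5SA) vehicle array, with differences from 1.91 to 2.20. A second, dimmer TIFA probe differed by 1.01 and 0.39 and was not called.

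All 11 measured NF-kB subunits and IkB proteins read higher with IL-1b in both pairs, beside 6699 of all 19090 genes, and 6 of the 11 were called. The list had the highest median of any list, 1.14. NFKBIA, the inhibitor IkB alpha and a textbook target of NF-kB, read 16.49 and 16.74 with vehicle and 18.66 and 18.66 with IL-1b. Both lines reached the same level, and the mean difference was 2.05 ± 0.20 (SE) with an adjusted p of 1.13e-05 in limma. NFKBIZ, an atypical IkB needed for IL6 transcription, read 11.59 and 12.50 with vehicle and 14.86 and 14.36 with IL-1b. NFKB2, the precursor subunit of the alternative pathway, differed by 2.26 and 1.75, although its second probe differed by 0.18 and -0.38.

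NFKBID, REL and NFKB1 were called with mean differences of 1.77, 1.35 and 1.14. RELA, the main activating subunit, read 13.48 and 13.26 with vehicle and 13.81 and 13.82 with IL-1b and was not called. NFKBIE differed by 1.42 and 0.47, BCL3 by 1.38 and 0.23, and RELB by 0.53 and 0.74, without passing the test. None of the 6 calls held in every fit: NFKBIZ and NFKB2 lost theirs without the GFP vehicle array (1.79 to 3.33 and 1.79 to 2.22), NFKBIA and NFKBID without either vehicle array (1.93 to 2.17 and 1.03 to 2.52), and REL and NFKB1 without any 1 of the 4 arrays (0.91 to 1.79 and 0.95 to 1.33).

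The list of A20, ABIN and TRAF genes holds inhibitors that damp the pathway and also IRAK2, which sustains it. TNFAIP3, the ubiquitin-editing enzyme A20 that shuts off IKK, read 11.80 and 12.56 with vehicle and 16.07 and 15.39 with IL-1b. The YAP(5SA) line started higher and ended lower than the GFP line, and the mean difference was 3.55 ± 0.30 (SE) with an adjusted p of 1.75e-06 in limma. TNFAIP2, a TNF-induced gene, differed by 0.82 and 1.81. These were the 2 genes called among 14 measured genes of the A20, ABIN and TRAF list, whose median was 0.30. A20 held its call in all 6 fits, whereas TNFAIP2 lost it without any 1 of the 4 arrays (0.78 to 1.85).

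Of 9 measured mRNA decay factors, 2 were called higher, and the median was 0.70. ZFP36, tristetraprolin, which binds AU-rich elements in cytokine mRNAs and promotes their decay, read 10.52 and 11.02 with vehicle and 13.77 and 13.34 with IL-1b. ZC3H12A, the ribonuclease Regnase-1 that degrades IL6 mRNA, read 11.69 and 11.46 with vehicle and 14.38 and 13.49 with IL-1b. Both genes separated the treatments in each line, by mean differences of 2.78 and 2.36. The call of ZFP36 held in all 6 fits and that of ZC3H12A was lost without the GFP vehicle array (1.99 to 2.74). The relatives ZC3H12C and ZFP36L1 differed by 0.92 and 0.81 in the mean and were not called, with an adjusted p in limma of 0.108 and 0.151.

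Early genes, most of them for transcription factors, formed the next group. Among 11 measured EGR, NR4A and IER genes, EGR1, EGR4, NR4A3 and IER3 were called higher, none was called lower, and the median was 1.12. EGR1, a zinc-finger factor induced by ERK through serum response factor, read 12.92 and 13.60 with vehicle and 16.21 and 14.53 with IL-1b. The GFP line moved by 3.28 and the YAP(5SA) line by 0.92, and the call was lost without either GFP array of the pair (1.02 to 3.19). EGR4 was much dimmer, at 5.85 and 6.06 with vehicle and 8.27 and 7.94 with IL-1b. NR4A3, an orphan nuclear receptor, differed by 1.83 and 1.5, whereas its other probes, both dimmer and not called, had mean differences of 0.21 and 0.78. IER3, which modulates NF-kB and cell survival, differed by 1.27 and 1.86.

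EGR4 and IER3 lost their calls without either vehicle array (1.89 to 2.41 and 1.23 to 1.89), and NR4A3 also without the GFP IL-1b array (1.48 to 1.85). NR4A2 lay just outside the threshold with 1.20 and 0.99 and an adjusted p in limma of 0.0506. NR4A1 differed by 1.70 and 0.72, and EGR3 by 1.91 and 0.34. In each of these uncalled genes the GFP pair showed the larger difference.

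Of 13 measured AP-1 and MAF genes, FOS, FOSB, JUN, JUNB and ATF3 were called higher and none lower, with a median of 0.48. FOSB, a FOS-family subunit, read 9.71 and 9.48 with vehicle and 13.57 and 11.45 with IL-1b, a mean difference of 2.91 ± 0.33 (SE). JUN, its dimerisation partner, was bright throughout, at 14.64 and 15.37 with vehicle and 16.33 and 16.85 with IL-1b. ATF3, a stress-induced repressor, differed by 2.30 and 1.48. JUNB differed by 2.14 and 1.27, and FOS by 1.83 and 1.38. In all 5 genes the GFP pair moved further than the YAP(5SA) pair, and both IL-1b arrays lay above both vehicle arrays.

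FOSB and ATF3 lost their calls without the GFP vehicle array (2.10 to 3.73 and 1.39 to 2.39), JUNB without either GFP array of the pair (1.35 to 2.06), and JUN and FOS also without the YAP(5SA) vehicle array (1.39 to 1.78 and 1.33 to 1.88). FOSL2 and MAFG differed by 0.35 and 0.36 in the mean, and MAFF by 0.85, without being called. KLF6, a Kruppel-like factor, was the 1 called gene among 13 of its family, whose median was 0.15. It differed by 1.34 and 1.21, and 2 of its 3 other probes were called too, with 1.39 and 1.57. Its call was lost without any 1 of the 4 arrays, with differences from 1.21 to 1.34.

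Among phosphatases that switch off MAP kinases, DUSP8 was called higher out of 11 measured, with 1.37 and 0.92, and lost its call without any 1 of the 4 arrays (0.96 to 1.32). Its second, dimmer probe differed by 0.59 and 0.38 and was not called. The median of the phosphatase list was 0.02. DUSP10 differed by 1.08 and 0.85, and DUSP4 by -0.64 and -1.5. DUSP1, a common early gene, read 15.30 and 16.04 with vehicle and 16.06 and 16.32 with IL-1b. None of these 3 was called, with an adjusted p in limma of 0.102, 0.086 and 0.345.

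Several effectors of inflammation were raised. PTGS2, cyclooxygenase-2, which makes prostaglandin precursors, read 15.63 in the GFP line and 11.12 in the YAP(5SA) line with vehicle, and 17.31 and 13.70 with IL-1b. Its level followed the line more than the treatment, so the groups overlapped, and each line moved up, by 1.68 and 2.57. It was the 1 called gene of 9 in the prostaglandin pathway, whose median was -0.01, and its call was lost without the YAP(5SA) vehicle array (1.77 to 2.48). The synthase gene PTGES differed by 0.10 and 0.79 and was not called.

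PTX3, a pentraxin that marks microbes for complement, read 8.03 and 9.92 with vehicle and 11.00 and 12.95 with IL-1b. The lines moved by almost the same amount, 2.97 and 3.03, and the call held in all 6 fits. SERPINA3, the acute phase antiproteinase alpha-1-antichymotrypsin, read 7.90 and 6.12 with vehicle and 12.08 and 8.52 with IL-1b, and lost its call without the GFP vehicle array (2.53 to 4.05). These were the 2 genes called of 14 acute phase and complement genes, with a median of 0.42. SAA1, a classical acute phase gene, differed by 0.98 and 0.03, and the complement gene CFB by 0.52 and 1.04.

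ICAM1, the endothelial and epithelial ligand for leukocyte integrins, read 7.69 and 7.6 with vehicle and 10.03 and 8.57 with IL-1b. The GFP line gained more, 2.35 against 0.97, and the call was lost without either GFP array of the pair or the YAP(5SA) vehicle array (0.96 to 2.36). It was the 1 called gene of 7 adhesion genes, whose median was 1.06. Of the 6 uncalled members, ICAM4 differed by 3.04 and 0.46, SELE by 2.05 and 0.62, and VCAM1 by 1.56 and 0.55, with an adjusted p in limma of 0.0597, 0.0676 and 0.101. ICAM3 differed by 0.34 and 0.70, ICAM2 by 0.44 and -0.13, and ICAM5 by -0.47 and -0.65. Whether the lines differed was not tested.

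Of 13 survival and BCL2 family genes, the anti-apoptotic BCL2A1 and the pro-apoptotic BBC3 (PUMA) were called higher, and the median was 0.51. BCL2A1 differed by 1.76 and 1.24, and BBC3 by 1.84 and 1.22. BCL2A1 lost its call without any 1 of the 4 arrays (1.26 to 1.74), and BBC3 without any of them other than the YAP(5SA) IL-1b array (1.28 to 1.77). SOD2, the mitochondrial superoxide dismutase, differed by 1.20 and 0.45 and was not called. CD83, a maturation marker of dendritic cells, was the 1 called gene of 16 in the TNF superfamily and checkpoint list. It read 8.16 and 9.24 with vehicle and 11.63 and 11.18 with IL-1b, and its call was lost without the GFP vehicle array (1.99 to 3.42).

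IRF1, a transcription factor that NF-kB induces, was the 1 called gene of 8 measured IRF genes and read 12.48 and 12.38 with vehicle and 14.70 and 13.75 with IL-1b. A second IRF1 probe differed by 2.59, and the call of the first was lost without either GFP array of the pair (1.30 to 2.29). INHBA, a subunit of activin A, read 5.82 and 6.41 with vehicle and 9.29 and 8.17 with IL-1b, and was the 1 called gene of 12 on the ID and TGF-beta list. A second and dimmer INHBA probe differed by 0.91 and -0.28, and the call was lost without either vehicle array (1.89 to 3.34). The inhibitors of differentiation ID1, ID2 and ID3 read lower in both pairs, with mean differences of -1.06, -0.76 and -0.70, and were not called.

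**Figure D3:**
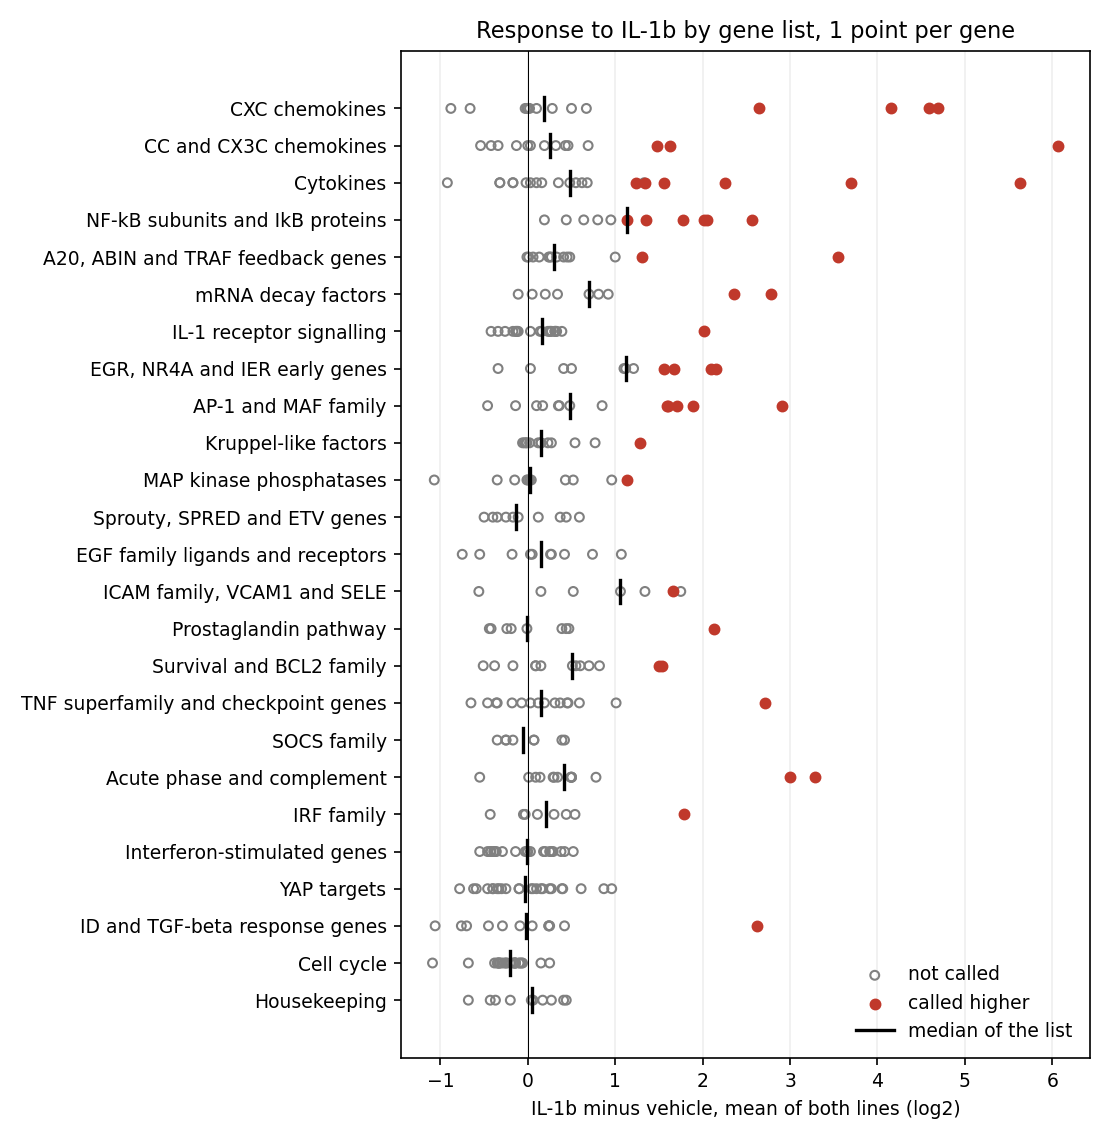
IL-1b minus vehicle, as the mean of both lines on the log2 scale, for every measured member of the 25 gene lists, 1 point per gene, with called genes filled in red and the median of each list as a black bar. The medians run from -0.20 for the cell cycle list to 1.14 for NF-kB subunits and IkB proteins.

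In all, 338 of 355 listed genes were measured, and 17 were not analysed here. The lists held 44 of the 78 genes called higher and no gene called lower. In 7 lists no gene was called in either direction: Sprouty, SPRED and ETV genes, EGF family genes, SOCS genes, interferon-stimulated genes, YAP targets, cell cycle genes and housekeeping genes. At an unadjusted p under 0.05 in limma, 5.57% of all genes were higher and 7.18% lower. At that level 0 of 21 interferon-stimulated genes and 0 of 8 SOCS genes passed, and their medians were -0.01 and -0.05. Of 24 YAP targets, 3 passed upward and 3 downward at that level, with a median of -0.03. The counts upward and downward were 1 and 0 of 10 Sprouty, SPRED and ETV genes, 2 and 1 of 10 EGF family genes, 0 and 2 of 25 cell cycle genes and 1 and 1 of 10 housekeeping genes. CCN2, a direct YAP-TEAD target, read 13.11 and 13.67 with vehicle and 12.68 and 13.18 with IL-1b, and NUAK2 differed by 1.01 and 0.91.

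Among 25 cell cycle genes, 18 read lower with IL-1b in both pairs, beside 6334 of all 19090 genes, and the median was -0.20. FOXM1, a driver of mitotic genes, differed by -0.16 and -2.02, so its difference lay almost wholly in the YAP(5SA) pair. HBEGF, an EGF receptor ligand, differed by 0.94 and 1.19 with an adjusted p of 0.0784 in limma. ACTB read between 17.81 and 18.06 on the 4 arrays. YAP1 read 12.91 and 11.67 with vehicle and 12.88 and 12.31 with IL-1b, so its probe was not brighter in the line labelled YAP(5SA); whether the probe reports the introduced form was not tested.

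The labelled cell type was checked against 14 lung epithelial markers. KRT18 read between 17.09 and 17.78 and KRT7 between 15.32 and 16 on the 4 arrays, whereas the surfactant gene SFTPC read between 5.71 and 6.23 and the lung lineage factor NKX2-1 between 6.36 and 7.19. EPCAM read between 7.11 and 8.66 and KRT19 between 5.48 and 8.0, so the defining markers were not all bright, and 6 to 9 of the 14 read below 8 on each array. The list's median level ran from 7.48 to 8.08, and that of the leukocyte list from 7.39 to 8.56. The summed intensity of the epithelial list ran from 188416 to 311096 on the 4 arrays, and KRT18 alone made up between 68.6% and 74.1% of it. That of 9 leukocyte markers ran from 5007 to 9033, that of 7 endothelial markers from 1200 to 1463 and that of 8 fibroblast markers from 1634 to 2513. No marker was called in limma, and 1 leukocyte, 1 endothelial and 1 fibroblast gene passed upward at an unadjusted p under 0.05, as did 1 lung epithelial gene upward and 1 downward. The leukocyte gene was MS4A1, the B cell antigen CD20, which read 8.17 and 8.29 with vehicle and 9.37 and 9.30 with IL-1b. In bulk RNA, fewer cells of a type and less RNA per cell cannot be told apart.

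Outside the lists, 34 further genes were called higher, and C1QBP had the largest mean difference of all genes. C1QBP, a mitochondrial protein that also binds the globular heads of complement C1q, read 4.37 and 5.24 with vehicle and 14.01 and 13.76 with IL-1b. In intensities it was 4.61 and 21.7 with vehicle, close to 0, and 16472 and 13820 with IL-1b. The mean difference was 9.08 ± 0.28 (SE) with an adjusted p of 2.41e-12 in limma, and it lay between 7.63 and 10.38 under pseudocounts of 64 and 1. The TNFa arrays read 13.86 and 13.57, also far from the vehicle arrays, and the gene has 1 probe. Whether the low vehicle readings come from the RNA or from a fault of the probe was not tested.

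LINC03025, a long non-coding RNA, read 5.87 and 6.24 with vehicle and 10.57 and 8.76 with IL-1b, and its call held in all 6 fits. A second, dimmer probe of it differed by 1.41 and 0.08. TMEM88, a membrane protein known to damp Wnt signalling, read 7.94 and 8.40 with vehicle and 10.48 and 10.63 with IL-1b, and lost its call without the GFP vehicle array (2.18 to 2.60). SPDYE6 belongs to a family of near-identical copies and read 4.49 and 4.70 with vehicle and 6.60 and 6.81 with IL-1b. Which copy gave that signal was not tested, and the call was lost without either vehicle array (2.01 to 2.21). The second SPDYE6 probe differed by 1.46 and 0.27 and was not called.

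EFNA1, an ephrin ligand induced by TNF, read 13.38 and 14.78 with vehicle and 16.37 and 16.48 with IL-1b. The lines ended at the same level from different starts, and a second EFNA1 probe differed by 2.99. TNFAIP6, a hyaluronan-binding protein, read 7.61 and 5.27 with vehicle and 9.28 and 8.0 with IL-1b. GCH1, which makes the cofactor of nitric oxide synthases, differed by 2.29 and 1.53, and the histone demethylase gene KDM6B by 2.41 and 1.51. The kinase PIM1 differed by 1.63 and 1.46, the transcription factor CEBPD by 1.42 and 1.37, and IFNGR2, a chain of the interferon gamma receptor, by 1.15 and 1.23. EFNA1 and GCH1 lost their calls without the GFP vehicle array (1.70 to 2.99 and 1.62 to 2.20), TNFAIP6 and KDM6B without either vehicle array (1.51 to 2.88 and 1.59 to 2.33), CEBPD also without the GFP IL-1b array (1.23 to 1.55), and PIM1 and IFNGR2 without any 1 of the 4 arrays (1.47 to 1.61 and 1.15 to 1.22).

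Some raised genes lie side by side. With positions from RefSeq (GRCh38.p14), 75 of the 78 genes could be placed, and 9 of them stood within 2 protein-coding genes of another. CXCL2 and CXCL3 are direct neighbours on chromosome 4, and CXCL1 and CXCL8 lie there with 2 genes between them. LTA, TNF and LTB are adjacent on chromosome 6, and KDM6B and TMEM88 lie on chromosome 17 with 1 gene between them. Among 18 placed genes called lower, 0 had such a neighbour. A smaller set allows fewer pairs, and no share was computed for all measured genes, so these counts cannot be compared.

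Fewer genes were called lower than higher with IL-1b, and no listed gene was among the lower ones. This order did not hold in every setting. At an unadjusted p under 0.05 in limma, 1371 genes were lower and 1063 higher. After centring of the arrays on their medians, 140 were called lower and 135 higher. IFFO2, a gene for an intermediate filament-like protein, read 13.60 and 12.49 with vehicle and 8.08 and 8.47 with IL-1b. The mean difference was -4.77 ± 0.30 (SE) with an adjusted p of 3.07e-08 in limma, and it was the 1 lower call that held in all 6 fits. Its TNFa arrays read 7.85 and 7.89.

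IZUMO3, a relative of the sperm protein IZUMO1, read 12.21 and 12.77 with vehicle and 9.12 and 8.01 with IL-1b, while the TNFa arrays read 11.46 and 12.02. Both IL-1b arrays lay below the other 4, and the call was lost without the YAP(5SA) vehicle array (-4.76 to -3.09). ASB2, a subunit of ubiquitin ligases, read 6.35 and 6.54 with vehicle, was at 4, the floor, on both IL-1b arrays, and read 6.26 and 6.0 on the TNFa arrays. The size of its difference is therefore set by the scale, and the call was lost without either vehicle array (-2.61 to -2.28). The difference between IL-1b and TNFa was not tested here for these genes.

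**Figure D4:**
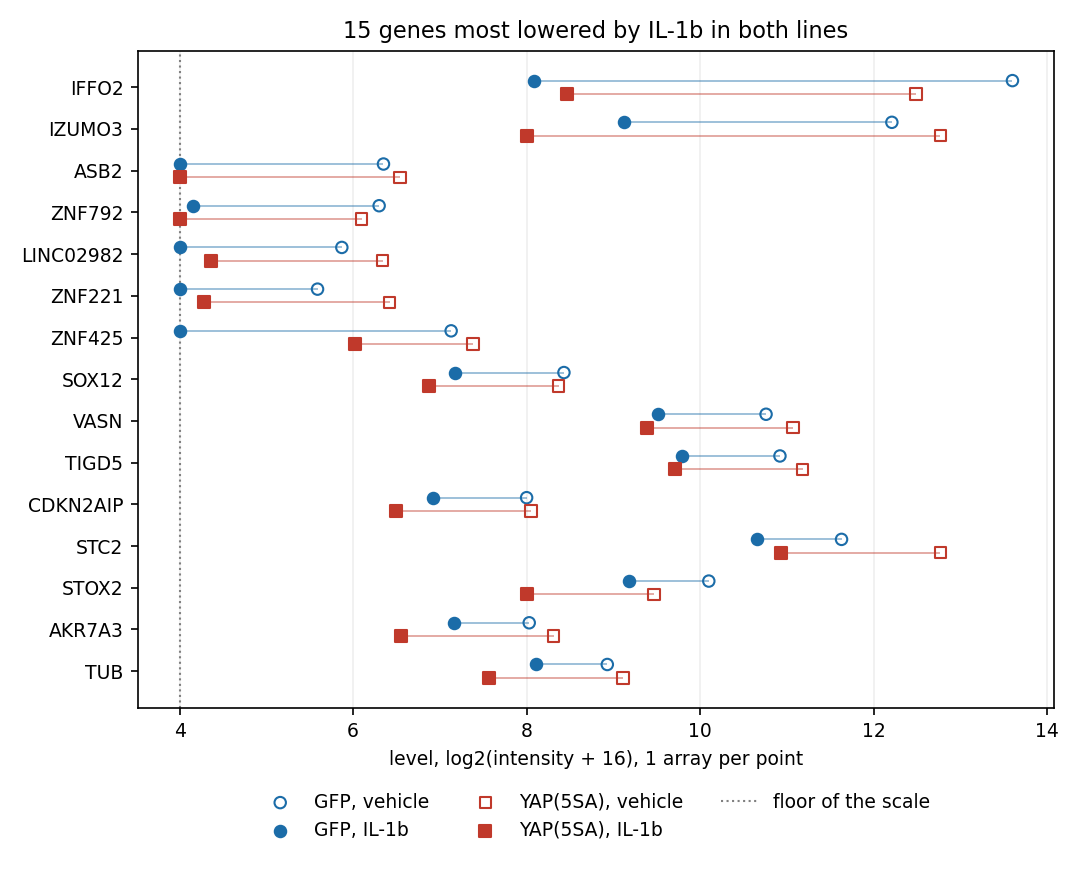
Level on each array, as log2(intensity + 16), for the 15 genes, among those called lower without overlap between IL-1b and vehicle arrays, that were lowered most in the line where they moved less: GFP line in blue circles, YAP(5SA) line in red squares, open for vehicle and filled for IL-1b, with the floor of the scale at 4 as a dotted line. Both IL-1b arrays of ASB2 and 1 IL-1b array each of ZNF792, LINC02982, ZNF221 and ZNF425 sit at the floor, while those of VASN, TIGD5 and STC2 lie between 9.39 and 10.93.

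Other lower genes were read well off the floor. VASN, a membrane protein that binds TGF-beta, read 10.76 and 11.07 with vehicle and 9.52 and 9.39 with IL-1b. SOX12, a transcription factor, read 8.43 and 8.37 with vehicle and 7.18 and 6.88 with IL-1b. STC2, a secreted glycoprotein of the stress response, read 11.63 and 12.77 with vehicle and 10.65 and 10.93 with IL-1b. Another, dimmer STC2 probe differed by -0.49 and -0.41 and was not called. TIGD5 differed by -1.13 and -1.47, CDKN2AIP by -1.08 and -1.56, and AKR7A3, an aldehyde reductase, by -0.87 and -1.76. RIPK4, a kinase of keratinocyte differentiation, read 10.98 and 8.13 with vehicle and 9.85 and 6.92 with IL-1b, and was the 1 lower gene whose groups overlapped. The calls of SOX12, STC2, CDKN2AIP and AKR7A3 were lost without either vehicle array or the YAP(5SA) IL-1b array (from -1.58 to -1.17, -1.77 to -1.05, -1.56 to -1.08 and -1.68 to -0.95), and those of VASN, TIGD5 and RIPK4 without any 1 of the 4 arrays (-1.70 to -1.22, -1.47 to -1.12 and -1.22 to -1.11).

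Many of the lowered genes lay at the dim end of the scale. Of the 30 genes lowered at least 2-fold in both lines, 21 had both IL-1b arrays below 5 and 17 had an IL-1b array at the floor, whereas 0 had a vehicle array there. Of these 30, 12 were called, and of the 18 not called, 17 had both IL-1b arrays below 5. The number of annotated probes at or below 0 also differed between arrays, at 132 and 10 with vehicle and 263 and 592 with IL-1b in the GFP line and the YAP(5SA) line. Its part in the lowered genes was not tested. Of the 19 genes called lower, 5 had an IL-1b array at the floor.

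Of the 97 called genes, 76 rest on 1 probe. The other 21 have 27 further probes, of which 20 differed in the same direction in both pairs and 7 were called in that direction. For higher genes this was 18 of 23 further probes, and for lower genes 2 of 4, with 0 called. The 7 called probes belong to IRF1, EFNA1, KLF6 (2 probes), CXCL1, CCL2 and KDM6B. Further probes of MBOAT4 and CLYBL, both called lower, differed by 0.12 and 0.02 in the mean.

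The pairs differed in size. In the GFP line alone 322 genes were at least 2-fold higher and 140 at least 2-fold lower with IL-1b, and in the YAP(5SA) line alone 211 and 1049. Among the 78 genes called higher, the difference was larger in the GFP pair for 60, with a median of 1.86 there and of 1.47 for the YAP(5SA) pair. Among the 19 called lower it was larger in the YAP(5SA) pair for 16, with medians of -1.13 and -1.74. Across genes, which are not independent replicates and share the 4 arrays, Pearson's r between the pairs was 0.45 over all 19090 genes and 0.55 over the 12350 left without the dimmest 40% of probes. With 1 array per condition the difference between the lines in response had no test.

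Which array was present decided many calls. Leaving out the GFP vehicle array kept 14 of the 78 higher calls, and leaving out the YAP(5SA) vehicle array kept 27. Without the GFP or the YAP(5SA) IL-1b array, 37 and 53 were kept, and without either TNFa array all 78. The 12 higher calls that held in all 6 fits were C1QBP, CCL20, TNF, CXCL3, CXCL8, CXCL2, IL6, PTX3, TNFAIP3, LINC03025, CXCL1 and ZFP36. Of the 19 lower calls, 2 were kept without the GFP vehicle array and 1 without the YAP(5SA) vehicle array, and 9 and 6 without the GFP and the YAP(5SA) IL-1b array. No called gene changed sign in any of these fits. The fits without a TNFa array leave every difference as it was, because the remaining TNFa array is fitted exactly by its own term. A call kept there is therefore no check of its difference, and only the fits without an IL-1b or vehicle array are.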

How the data were processed

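Linear probe intensities of 6 1-colour (Cy5) arrays were used as the authors deposited them, with background already subtracted, as values below 0 on each array show (10 to 1146 probes). Trizol RNA was amplified, per the labels' protocols, by an Eberwine method. No source used here states the scanner, background method or scaling. Of 28264 probes, 25893 carried 1 gene in the platform annotation, 0 several, and 2371 none; all 25893 matched RefSeq, giving 19090 genes.

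Values below 0 were set to 0, 16 was added and log2 taken. An additive model of treatment and line over the 6 arrays was fitted with limma 3.58.1 (lmFit, eBayes with a trend) in R 4.3.3, with Benjamini-Hochberg adjustment over the 25893 probes at 0.05. It has 2 residual degrees of freedom and a prior of 15.2, and the number of arrays limits the precision. The fit was tested on simulated data of the same design. It called 20% of the probes changed by 1 on the log2 scale and 100% of those changed by 2, with 2 false calls. A gene near a 2-fold difference that was not called may therefore still have responded.

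The line pairs the arrays by title, and the line term stands for that pairing. Samples, members and lists were chosen with earlier results of these data known. The genes named are the 20 higher and 15 lower called genes with the largest difference in the line that moved less and no overlap between groups, every called list member, up to 3 more per list, and 8 by name; further genes were named after their values were seen. Promoters of the leading 6 higher genes were searched, and those with a match are printed. Alternatives were other pseudocounts, normalizations, filters on dim probes, probe rules, variance models, array sets and size limits.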

Additional observations from a re-analysis of the deposited data

Results flagged for a closer look

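In 13 genes the GFP pair and the YAP(5SA) pair, which give 1 difference per line, moved by at least 2-fold in opposite directions. The difference was not tested, since each condition has 1 array. In 12 of them the GFP line was higher and the YAP(5SA) line lower with IL-1b, and most of these read close to the floor of the scale. NXN, a thioredoxin-like gene, was the exception in brightness on that side: it read 4.30 and 10.87 with vehicle and 10.23 and 9.06 with IL-1b. Its TNFa arrays read 5.09 and 4.85, so 3 of the 6 arrays were low, among them the GFP vehicle array. TBX6, a T-box factor, went the other way, from 10.49 and 8.53 to 9.43 and 9.83.

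Probes without a gene name were outside the comparison. When all 28264 probes were fitted together with limma, 4 of the 2371 unnamed probes were called higher with IL-1b and 1 lower, with differences from -1.28 to 1.45. No gene was assigned to them here.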

How the results depend on the processing

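The direction of the 78 higher and 19 lower calls held in every alternative in which they were tested, while their number did not. Higher calls numbered 587 and lower calls 631 with the IL-1b and vehicle arrays alone, 135 and 140 with arrays centred on their medians, 152 and 137 without the dimmest 40% of probes, and 164 and 205 without the dimmest 60%. Without a trend there were 46 and 5. With the line term, which pairs the arrays, left out (no replicate block), 4 and 1 remained of the same genes. Lower calls alone moved past 1.5 times with robust estimation (72), the mean of all probes (10), a pseudocount of 1 (9) and quantile normalization (30). Leaving out 1 array at a time gave 23 to 590 higher and 1 to 643 lower calls. Genes raised at least 2-fold in both lines numbered 276 at a log2 limit of 0.58 and 18 at 2. Genes lowered at least 2-fold in both lines, 30 as reported, numbered 5 and 4 without the dimmest 40% and 60%, 293 and 6 with pseudocounts of 1 and 64, 13 after quantile normalization, and 401 and 4 at limits of 0.58 and 2. The filters test fewer probes and the array sets use fewer arrays; for the rest the cause was not tested. Signals near the floor limit every fold of a dim gene.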

Other observations

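Large gene families outside the lists showed few calls. Of 518 ZNF zinc finger genes, 0 were called higher and 3 lower (ZNF792, ZNF221 and ZNF425), with a median difference of -0.05, and all 3 had an IL-1b array at the floor. ZNF425 read 7.13 and 7.38 with vehicle and 4.0 and 6.02 with IL-1b, and lost its call without either vehicle array or the GFP IL-1b array (-3.39 to -1.09). In limma, 15 ZNF genes were higher and 55 lower at an unadjusted p under 0.05, beside 1063 and 1371 of all genes. Among 470 genes for LINC and antisense RNAs, 2 were called higher, LINC03025 and LINC01563, and LINC02982 lower. LINC01563 differed by 1.83 and 0.92, and lost its call without any 1 of the 4 IL-1b and vehicle arrays (1.01 to 1.74). No call was made among 75 ribosomal protein genes, 44 genes of mitochondrial complex I, 382 solute carriers and 69 histone genes. At an unadjusted p under 0.05, limma gave 9 higher and 3 lower ribosomal protein genes, 2 and 3 complex I genes, 23 and 23 solute carriers, and 6 and 3 histone genes.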
